A study of Saccharomyces cerevisiae with 36 samples.

Results

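The genes described here are 37 genes for the uptake, breakdown and assimilation of nitrogen sources and for their control in the budding yeast Saccharomyces cerevisiae. They were chosen by symbol from the annotation of the array, and all 37 were found among the 5449 genes measured, each with 1 probe set of its own. They fall into 6 groups: allantoin and urea use (9 genes), proline use (4), use of gamma-aminobutyrate, or GABA (4), ammonium uptake and assimilation (8), the GATA factors and Ure2 (5), and amino acid and peptide uptake and release (7).

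The strain was BY4741, a haploid MATa laboratory strain that lacks HIS3, LEU2, MET15 (MET17) and URA3 in every sample. Growing cells in minimal medium were exposed for 2 h to the IC20 of a single pesticide, an inhibitory concentration meant to make the 6 doses equally toxic. The doses were 200 mg/L alachlor and 220 mg/L S-metolachlor (both chloroacetanilide herbicides), 80 mg/L diuron (a phenylurea herbicide), 115 mg/L of the herbicide that the labels call MCPA-ME, 20 mg/L pyrimethanil (an anilinopyrimidine fungicide) and 160 mg/L carbofuran (a carbamate insecticide). Each pesticide had 3 exposed cultures and 3 unexposed cultures of its own, named as biological replicates, which gave 36 arrays in 12 groups. No culture serves as control for more than 1 pesticide.

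Yeast takes up ammonium and glutamine before poorer nitrogen sources. While good sources last, nitrogen catabolite repression keeps the genes for allantoin, urea, proline and GABA use and for several permeases low: the cytoplasmic protein Ure2 holds back the GATA activators Gln3 and Gat1, and the GATA repressors Dal80 and Gzf3 compete for the same promoter sites. Many pathways also need an inducer that acts through an activator of their own, such as Dal81 and Dal82 for allantoin and urea or Put3 for proline. The labels call the medium minimal without naming its nitrogen source.

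The values are array intensities, the brightness of a probe set on a linear scale. Their medians lay between 1319.6 and 1511.4 over the 36 arrays, and intensities are not compared between genes because probe sets differ in response. Of the markers deleted from BY4741, MET17 read 9 to 68.2, URA3 6.09 to 24.4 and LEU2 67 to 195 on all arrays. The mating type a genes MFA1, MFA2 and STE2 read from 8519 upwards, and the alpha genes MF(ALPHA)1, MF(ALPHA)2 and STE3 read at most 250, so the arrays fit the labelled strain. A mark, (2), in the titles of the exposed alachlor cultures has no stated meaning. The MCPA-ME arrays scattered most: the residual SD of the members on the log2 scale was 0.335 among the controls and 0.381 among the exposed cultures, against 0.105 to 0.175 in the other 10 groups. Over all genes it was 0.263 and 0.350 with MCPA-ME, and 0.262 among the exposed carbofuran cultures, where that of the members was 0.142. In the remaining groups the value over all genes was 0.103 to 0.187.

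Most changes of these genes were increases. Of 222 tests (37 genes with 6 pesticides), 73 found a higher level in the exposed cultures, or 32.9%, and 9 a lower level, or 4.05%. Over all genes the corresponding shares were 9.48% and 10.6%. The members were chosen with earlier results of these data known, so the gap between these shares is a description and not a test. Tests were limma's moderated test in 1 fit over the 36 arrays, with p-values adjusted by Benjamini-Hochberg over all genes, and a gene is called changed at an adjusted p under 0.05.

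Carbofuran changed the most members, with 24 higher and 2 lower, while 18.4% of all genes were higher and 23.7% lower. With S-metolachlor 15 were higher and 1 was lower (all genes 10.1% and 14.4%). With diuron 13 were higher and 2 lower (8.52% and 5.84%). Pyrimethanil raised 9 and lowered none (6.39% and 9.71%), and alachlor raised 7 and lowered none (3.52% and 1.5%). With MCPA-ME 5 were higher and 4 lower (9.97% and 8.61%), so that 13.5% of the members were higher and 10.8% lower, shares near those of all genes. The median log2 change of the 37 members was 0.65 with carbofuran, 0.29 with alachlor, 0.27 with S-metolachlor, 0.09 with diuron, 0.06 with pyrimethanil and 0.01 with MCPA-ME, while the median of all genes lay between -0.04 and 0.00 in each comparison. The split of all called genes into higher and lower moved with the scaling of the arrays, by over 10 percentage points for 3 pesticides. With the arrays centred on their medians, the share of called genes that were higher went from 43.7% to 58.5% with carbofuran, from 39.7% to 56.2% with pyrimethanil and from 53.7% to 63.9% with MCPA-ME, and quantile normalisation gave 52.0%, 51.2% and 62.3%. All 82 calls among the members held under quantile normalisation, and 81 held under median centring, which ended that of ASP1 with S-metolachlor.

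Over the 6 pesticides 30 of the 37 members were called at least once, or 81.1%, against 68.9% of all genes. 6 members were higher with at least 5 pesticides, against 1.6% of all genes: DAL3 and CPS1 with all 6, and DAL2, GDH2, MEP2 and UGA1 with 5. 5 members (DUR3, PUT4, PUT1, AGP1 and GZF3) were higher with some pesticide and lower with another, which 9.18% of all genes were. The 7 members never called were the pathway activators DAL81, DAL82 and PUT3, the GATA activator GAT1, the dehydrogenase PUT2, the ammonium permease MEP3 and the glutamate synthase GLT1. In 80 of the 82 calls the 3 exposed arrays did not overlap the 3 controls, or 97.6%, and in 90.1% of the calls over all genes. The exceptions among the members were UGA1 and UGA3 with MCPA-ME. Of all tests over all genes, called or not, 39.4% showed no overlap, so a lack of overlap without a call is common.

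**Figure D1:**
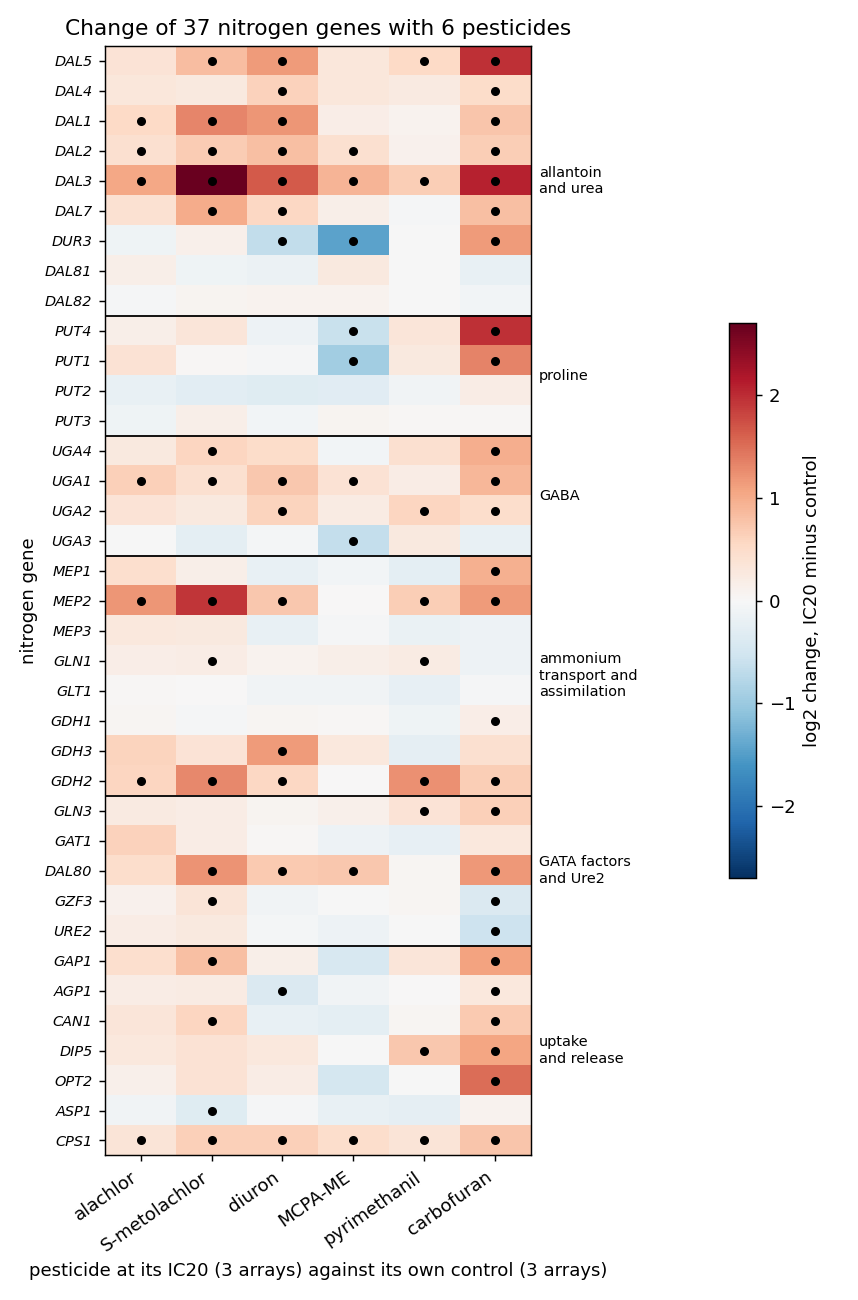
Log2 change (IC20 minus own control, colour scale) of each of the 37 genes, in rows by group, with the 6 pesticides in columns, where a dot marks an adjusted p under 0.05. Carbofuran holds 26 of the 82 dots, more than any other column, and DAL3 and CPS1 are marked in all 6 columns.

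The allantoin and urea genes gave the largest change of all members. Allantoin is a purine breakdown product that yeast degrades stepwise to urea and glyoxylate. Of the 9 genes, 7 were higher with carbofuran, 6 were higher and 1 lower with diuron, 5 were higher with S-metolachlor, 3 with alachlor and 2 with pyrimethanil, and with MCPA-ME 2 were higher and 1 lower. Their median log2 change was 0.75 with carbofuran, 0.69 with S-metolachlor, 0.62 with diuron, 0.38 with alachlor, 0.27 with MCPA-ME and 0.10 with pyrimethanil.

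DAL3 encodes ureidoglycolate lyase, which releases urea late in the pathway, and rose with every pesticide. With S-metolachlor the control arrays read 266, 316 and 311 and the exposed arrays 1924, 1893 and 1873, a 6.39-fold rise (log2 2.68, 95% confidence interval 2.39 to 2.96, limma adjusted p = 3.53e-14). With carbofuran the controls read 276, 331 and 308 and the exposed arrays 1302, 1387 and 1182, a 4.23-fold rise (limma adjusted p = 1.52e-11). The 3 exposed arrays of each of these pesticides stood far above all control arrays of the gene. With diuron DAL3 went from 236 ± 11.3 to 752 ± 136 (SD, n = 3), 3.15-fold (limma adjusted p = 1.14e-09), and with alachlor from 342 ± 42.4 to 701 ± 57.9, 2.05-fold (limma adjusted p = 6.13e-06). The smaller rises were 1.89-fold with MCPA-ME, from 316 ± 70 to 590 ± 75.4 (limma adjusted p = 2.32e-05), and 1.57-fold with pyrimethanil, from 248 ± 32.4 to 389.9 ± 49 (limma adjusted p = 0.00183). In all 6 comparisons the exposed arrays lay above the controls, and the order of the pesticides was S-metolachlor, carbofuran, diuron, alachlor, MCPA-ME and pyrimethanil. On the log2 scale the 95% confidence intervals of neighbours in this order overlapped between carbofuran (1.80 to 2.36) and diuron (1.37 to 1.94), between alachlor (0.76 to 1.32) and MCPA-ME (0.63 to 1.20), and between MCPA-ME and pyrimethanil (0.37 to 0.94).

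DAL5, the permease for allantoate, rose most with carbofuran. Its controls there read 728, 857 and 949 and the exposed arrays 3004, 3370 and 3492, a 3.91-fold rise (limma adjusted p = 8.44e-11). With diuron it went from 689 ± 24.1 to 1525 ± 141, 2.21-fold (limma adjusted p = 1.43e-06), and with S-metolachlor from 677 ± 55.9 to 1203 ± 78.2, 1.78-fold (limma adjusted p = 0.0001). The pyrimethanil value was 1.46-fold, from 679 ± 46.3 to 999 ± 182 (limma adjusted p = 0.0104), and did not pass the threshold without control array 1 (0.0654), IC20 array 2 (0.0536) or IC20 array 3 (0.065). With alachlor (log2 0.38, limma adjusted p = 0.148) and MCPA-ME (0.32, 0.127) DAL5 was not called, and with both the exposed arrays overlapped the controls.

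DAL1, allantoinase and the first step of breakdown, was dim on every array (37.5 to 249). With S-metolachlor its controls read 37.9, 37.5 and 41.4 and the exposed arrays 109, 77.5 and 109 (2.50-fold, limma adjusted p = 8.36e-09). With diuron the controls read 47.5, 42.9 and 51.9 and the exposed arrays 115, 90.7 and 122 (2.29-fold, limma adjusted p = 6.52e-08). With carbofuran DAL1 started from 144 ± 9.86, above the exposed arrays of every other pesticide, and reached 243 ± 6.83 (1.68-fold, limma adjusted p = 3.71e-05). The alachlor rise was from 50.5 ± 2.69 to 73.7 ± 8.36 (1.45-fold, limma adjusted p = 0.00702), and MCPA-ME (log2 0.17) and pyrimethanil (0.10) were not called. With every value raised to at least 100, the S-metolachlor change became 0.08 (limma adjusted p = 0.208) and the alachlor change 0, while the calls with diuron and carbofuran held. Against the 18 controls of the study taken as 1 group the log2 change was 0.56 with S-metolachlor (limma adjusted p = 0.169), 0.72 with diuron (0.167) and 0.16 with alachlor (0.753), and with carbofuran it rose to 1.88 (2.68e-05).

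DAL2 encodes allantoicase, the step before DAL3, and rose with all pesticides but pyrimethanil (log2 0.13, limma adjusted p = 0.476). The rises were 0.82 with diuron, 0.69 with S-metolachlor, 0.65 with carbofuran, 0.43 with alachlor and 0.43 with MCPA-ME. That of alachlor was not called without IC20 array 2 (limma adjusted p = 0.109). DAL7, a malate synthase that can use the glyoxylate set free, went from 479 ± 52 to 959.9 ± 40.8 with S-metolachlor (2.01-fold, limma adjusted p = 9.5e-06) and from 1762 ± 76.9 to 3082 ± 272 with carbofuran (1.75-fold, limma adjusted p = 0.000102). The diuron rise of DAL7, 0.55 on the log2 scale, was lost without control array 2 (limma adjusted p = 0.0849). Against the 18 controls as 1 group the log2 change of DAL7 was 0.44 with S-metolachlor (limma adjusted p = 0.29), 0.13 with diuron (0.844) and 2.12 with carbofuran (5.92e-06). DAL4, the allantoin permease, was higher with diuron (log2 0.62) and carbofuran (0.49), and both calls were lost without some single array: control array 2 (limma adjusted p = 0.0572) or 3 (0.0705) of diuron, and control array 1 (0.0995), IC20 array 2 (0.0576) or IC20 array 3 (0.158) of carbofuran.

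In the R64 assembly DAL1, DAL4, DAL2, DCG1, DAL7 and DAL3 follow one another on chromosome IX. DCG1, which is not among the 37 genes, was higher with S-metolachlor (log2 1.04), diuron (0.72) and pyrimethanil (0.78). Its values were 0.43 with alachlor and 0.34 with MCPA-ME, neither called, and -0.14 with carbofuran (limma adjusted p = 0.401), where all 5 neighbouring DAL genes were called higher. The carbofuran controls of DCG1 averaged 843, against 356 to 489 in the other control groups. Its exposed carbofuran arrays averaged 784, and its exposed S-metolachlor arrays 822. The log2 changes of the neighbours were unequal, with S-metolachlor from 0.25 (DAL4, not called) to 2.68 (DAL3).

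DUR3, the plasma membrane transporter for urea and polyamines, moved in both directions. With carbofuran the controls read 2153, 2348 and 2624 and the exposed arrays 4936, 5321 and 5463, a 2.21-fold rise (limma adjusted p = 2.33e-05). With MCPA-ME the controls read 2225, 1754 and 1524 and the exposed arrays 976, 406 and 744, which is 2.72-fold lower (log2 -1.45, limma adjusted p = 1.57e-06). With diuron DUR3 fell by 0.66 on the log2 scale, from 1596 ± 209 to 1003 ± 29.4 (limma adjusted p = 0.0124), a call that was lost without control array 2 (0.0632). In these 3 comparisons the groups did not overlap, while alachlor (log2 -0.12), S-metolachlor (0.14) and pyrimethanil (-0.01) gave no call. The change of DUR3 differed among the 6 pesticides (limma F test, adjusted p = 6.69e-07). DAL81 and DAL82, the activators of the pathway, ranged from -0.19 to 0.27 and from -0.08 to 0.10 on the log2 scale over the 6 pesticides and were never called.

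**Figure D2:**
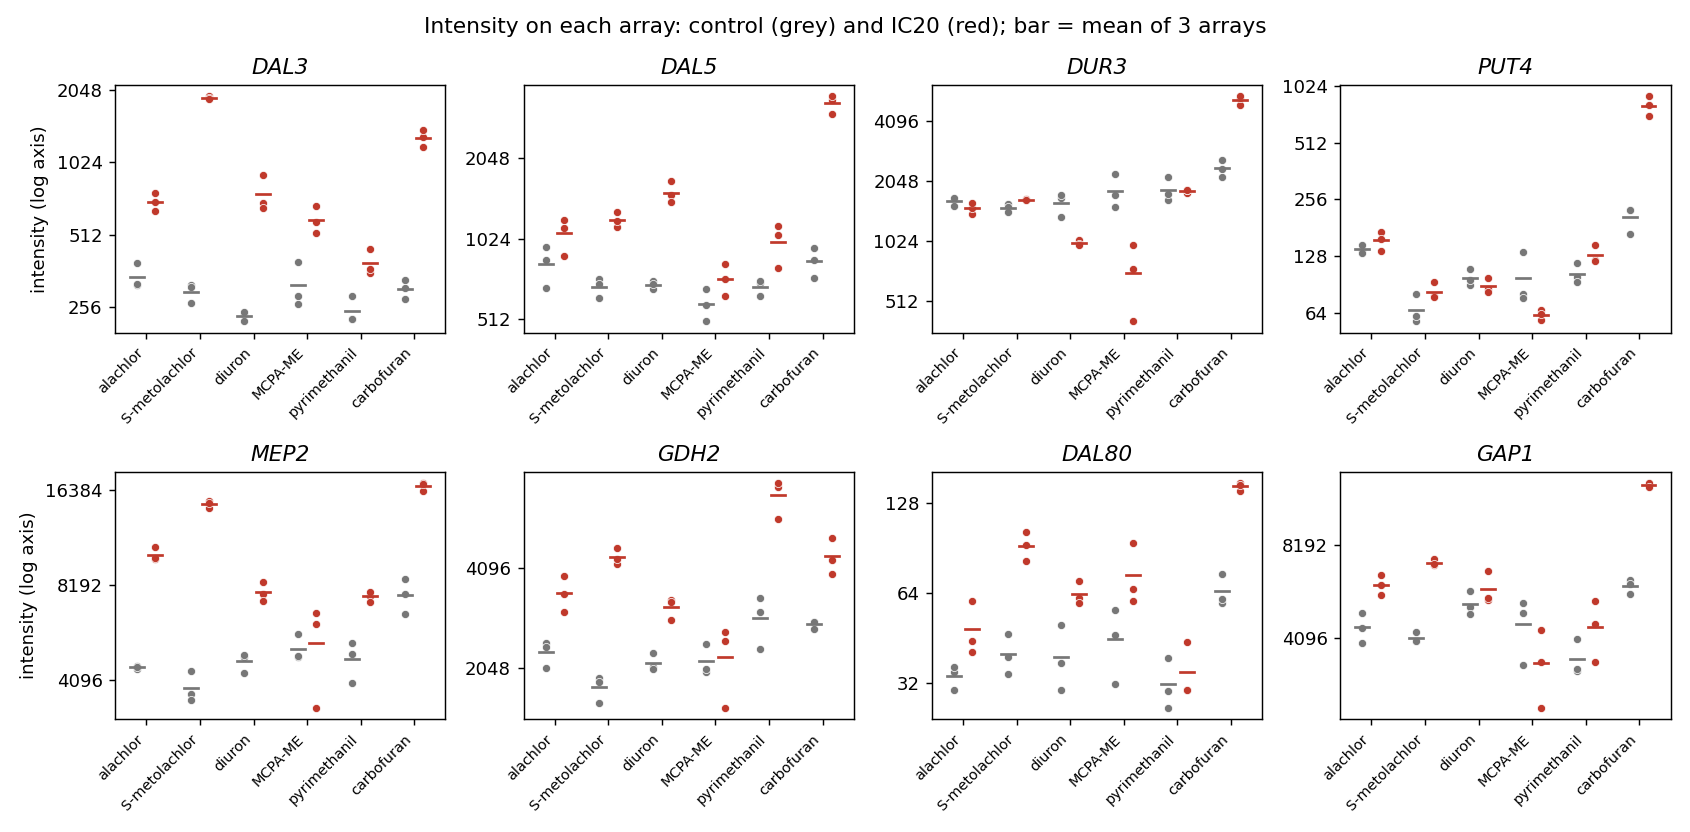
Intensity (log2 axis) on every array of DAL3, DAL5, DUR3, PUT4, MEP2, GDH2, DAL80 and GAP1, by pesticide, with controls in grey, IC20 cultures in red and a bar at each group's mean of 3 arrays. DAL3 stands above its controls in all 6 experiments, while DUR3 stands above them with carbofuran and below them with MCPA-ME and diuron.

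The proline genes changed with 2 pesticides and in opposite directions. Proline is taken up by Put4 and oxidised in mitochondria to glutamate by Put1 and then Put2. Of the 4 genes, 2 were higher with carbofuran (median log2 change of the 4, 0.77) and the same 2 were lower with MCPA-ME (median -0.45), and none was called with the other 4 pesticides (medians from -0.10 to 0.14).

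PUT4 with carbofuran read 168, 226 and 225 in the controls and 810, 709 and 907 in the exposed arrays, a 3.94-fold rise (log2 1.98, 95% confidence interval 1.64 to 2.32, limma adjusted p = 1.19e-09). With MCPA-ME its controls read 135, 80.2 and 76.5 and the exposed arrays 65.9, 58.5 and 62.6, which is 1.51-fold lower (limma adjusted p = 0.0123). The groups did not overlap with either pesticide, but control array 1 of MCPA-ME stood above the other controls, and without it the log2 change was -0.33 (limma adjusted p = 0.147). With every value raised to at least 100 it was -0.14 (limma adjusted p = 0.43). With the other pesticides PUT4 changed by -0.14 to 0.33 on the log2 scale, with no call.

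PUT1, proline oxidase, with carbofuran read 677, 1252 and 935 in the controls and 2673, 1731 and 2750 in the exposed arrays, a 2.52-fold rise (limma adjusted p = 2.2e-05). With MCPA-ME its controls read 491, 417 and 506 and the exposed arrays 225, 207 and 322, which is 1.90-fold lower (limma adjusted p = 0.00231). Against the 18 controls as 1 group the log2 value of PUT1 was -0.73 with MCPA-ME (limma adjusted p = 0.196) and 2.51 with carbofuran (1.38e-05), and that of PUT4 with carbofuran was 2.87. The spread among the carbofuran cultures was wide, yet the lowest exposed array stood above the highest control. PUT2, the second enzyme, was not called with any pesticide, with log2 changes from -0.32 (diuron) to 0.20 (carbofuran), and the activator PUT3 ranged from -0.12 to 0.16. PUT4 and PUT1 differed in their change among the pesticides (limma F test, adjusted p = 1.24e-07 and 7.5e-05), whereas PUT2 (0.123) and PUT3 (0.523) did not pass that test.

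GABA is taken up by Uga4, converted to succinate semialdehyde by the transaminase Uga1 and then to succinate by the dehydrogenase Uga2. Of the 4 genes, 3 were higher with carbofuran, 2 with S-metolachlor, 2 with diuron, 1 with alachlor and 1 with pyrimethanil, and with MCPA-ME 1 was higher and 1 lower. Medians lay between 0.07 (MCPA-ME) and 0.69 (carbofuran) on the log2 scale.

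UGA1 was higher with all pesticides but pyrimethanil (log2 0.20, limma adjusted p = 0.234). With carbofuran the controls read 1761, 2241 and 1956 and the exposed arrays 3594, 3566 and 3835, a 1.85-fold rise (limma adjusted p = 1.07e-06). The other rises were 0.72 with diuron, 0.63 with alachlor, 0.43 with S-metolachlor and 0.39 with MCPA-ME on the log2 scale. With MCPA-ME the groups overlapped and the call was lost without control array 2 (limma adjusted p = 0.0562), control array 3 (0.0667), IC20 array 1 (0.0641) or IC20 array 3 (0.129). UGA4 was the member of this group with the largest change: with carbofuran its controls read 462, 568 and 618 and its exposed arrays 885, 1050 and 1314, a 1.96-fold rise (limma adjusted p = 0.000171).

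With S-metolachlor UGA4 went from 548 ± 121 to 811 ± 65.5 (1.5-fold, limma adjusted p = 0.0218), and the call was lost without control array 2 (0.117) or 3 (0.0689) or IC20 array 1 (0.0795) or 2 (0.0548). With diuron (log2 0.49, limma adjusted p = 0.0744) and pyrimethanil (0.43, 0.11) UGA4 was not called, but with the replicate number as a block it was (limma adjusted p = 0.00464 and 0.0113). UGA2 was higher with diuron (log2 0.61), pyrimethanil (0.58) and carbofuran (0.48). Each of these 3 calls was lost without some array: IC20 array 2 of diuron (limma adjusted p = 0.0552), control array 1 (0.0887) or IC20 array 2 (0.0691) of pyrimethanil, and control array 1 (0.118) or IC20 array 3 (0.0812) of carbofuran. UGA3, the activator of the pathway, was called with MCPA-ME alone among the 6 tests, and lower, at 1756, 1851 and 1516 in the controls and 1713, 679 and 1110 in the exposed arrays (log2 -0.64, limma adjusted p = 0.00788). There the groups overlapped, and without IC20 array 2 the value was -0.30 (limma adjusted p = 0.0546). The change of UGA3 did not pass the test of a difference among pesticides (limma F test, adjusted p = 0.0521).

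Among the 8 ammonium genes the calls were of MEP2, GDH2, GDH3, MEP1, GLN1 and GDH1, all upwards. 4 were higher with carbofuran, 3 each with S-metolachlor, diuron and pyrimethanil, 2 with alachlor and none with MCPA-ME. Medians ranged from -0.15 with pyrimethanil to 0.37 with alachlor on the log2 scale.

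MEP2 encodes a high-affinity ammonium permease that also acts as a sensor for filamentous growth. With S-metolachlor its controls read 4383, 3692 and 3542 and the exposed arrays 14314, 15066 and 14921, a 3.83-fold rise (log2 1.94, 95% confidence interval 1.62 to 2.26, limma adjusted p = 4.57e-10). With alachlor the controls read 4550, 4447 and 4502 and the exposed arrays 10778, 9903 and 10006, a 2.27-fold rise (limma adjusted p = 5.78e-06). With carbofuran it went from 7626 ± 956 to 16892 ± 508 (2.23-fold, limma adjusted p = 2.95e-06), and the log2 change, 1.15, was 1.77 against the 18 controls as 1 group. The rises with diuron, from 4699 ± 324 to 7775 ± 557, and with pyrimethanil, from 4774 ± 685 to 7535 ± 265, were 1.65-fold and 1.59-fold (limma adjusted p = 0.00155 and 0.00438). With MCPA-ME the exposed arrays read 6659, 3337 and 6161 around controls of 5743, 4830 and 4864, a log2 value of 0.01 (95% confidence interval -0.31 to 0.33). Of the other ammonium permeases, MEP1 was higher with carbofuran, from 3208 ± 298 to 6259 ± 552 (log2 0.96, limma adjusted p = 3.66e-05). With alachlor MEP1 was not called (log2 0.46, limma adjusted p = 0.101). Its groups there did not overlap, as in 39.4% of all tests over all genes. MEP3 was not called with any pesticide (log2 -0.20 to 0.28).

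GDH2 encodes the NAD-dependent glutamate dehydrogenase, which releases ammonium from glutamate. It was higher with all pesticides but MCPA-ME (log2 0.01). With S-metolachlor its controls read 1613, 1909 and 1869 and the exposed arrays 4187, 4676 and 4342 (2.45-fold, limma adjusted p = 3.69e-07). With pyrimethanil its controls read 3318, 3018 and 2344 and the exposed arrays 7141, 7335 and 5734 (2.34-fold, limma adjusted p = 1.48e-06), the largest change of any member with that fungicide. The rises with carbofuran, alachlor and diuron were 0.67, 0.58 and 0.56 on the log2 scale. The alachlor call was lost without control array 2 (limma adjusted p = 0.118), IC20 array 2 (0.0563) or IC20 array 3 (0.129), and the diuron call without IC20 array 1 (0.0537).

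The NADP-dependent dehydrogenases GDH1 and GDH3 make glutamate from ammonium. GDH3 was called with diuron, where the controls read 138, 111 and 114 and the exposed arrays 270.4, 283 and 248 (2.21-fold, limma adjusted p = 0.000401). Its alachlor (log2 0.60, limma adjusted p = 0.124) and carbofuran (0.43, 0.114) values were not called. The groups did not overlap with either pesticide, as in 39.4% of all tests over all genes. GDH1 was higher with carbofuran by 0.19 on the log2 scale (limma adjusted p = 0.00552). GLN1, glutamine synthetase, was higher by 0.19 with S-metolachlor and by 0.21 with pyrimethanil. Those calls of GLN1 were lost without control array 1 (limma adjusted p = 0.0706) or IC20 array 3 (0.0676) of S-metolachlor, and without control array 3 (0.102) or IC20 array 2 (0.0533) of pyrimethanil. GLT1, glutamate synthase, ranged from -0.23 to 0.04 and was not called.

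The GATA factors and Ure2 moved less evenly. Of the 5 genes, 2 were higher and 2 lower with carbofuran, 2 were higher with S-metolachlor, 1 each with diuron, MCPA-ME and pyrimethanil, and none was called with alachlor. Their medians lay between -0.00 (MCPA-ME) and 0.27 (carbofuran) on the log2 scale.

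DAL80, a GATA repressor that is itself under nitrogen catabolite repression, was called higher with 4 pesticides, at the dim end of the scale. With S-metolachlor its controls read 46.7, 39 and 34.2 and the exposed arrays 92.5, 82.1 and 102 (2.32-fold, limma adjusted p = 4.13e-05). With carbofuran its controls read 59.2, 61 and 74.4 and the exposed arrays 150.1, 141 and 147 (2.26-fold, limma adjusted p = 3.63e-05). No exposed array overlapped a control with either pesticide. The rise was 0.72 with MCPA-ME and 0.70 with diuron on the log2 scale. Those 2 calls were lost without control array 1 (limma adjusted p = 0.0913) or IC20 array 2 (0.0537) of MCPA-ME, and without control array 1 (0.0875), control array 3 (0.0588) or IC20 array 3 (0.0549) of diuron. DAL80 alone among the members had values under 32, the floor to which values were raised, on 7 of its 36 arrays. With a floor of 100 its log2 change was 0.01 with S-metolachlor (limma adjusted p = 0.676) and 0 with diuron and MCPA-ME, and the carbofuran call held. With array weights the MCPA-ME call was lost (0.067). Against the 18 controls as 1 group the carbofuran change was 1.82.

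GLN3, the GATA activator held back by Ure2, was higher with carbofuran, from 449 ± 50.3 to 699 ± 66.5 (log2 0.64, limma adjusted p = 8.43e-05), and with pyrimethanil (log2 0.37, limma adjusted p = 0.0238). The pyrimethanil call was lost without control array 1 (limma adjusted p = 0.0629), control array 3 (0.113), IC20 array 2 (0.0887) or IC20 array 3 (0.0598). URE2 fell with carbofuran, where the controls read 4041, 3978 and 4141 and the exposed arrays 3492, 2715 and 2222 (log2 -0.55, limma adjusted p = 0.000677). GZF3, the second GATA repressor, was lower with carbofuran (1384, 1513 and 1522 against 1292, 1020 and 1066, log2 -0.39, limma adjusted p = 0.00184). All 3 carbofuran calls depended on that experiment's own controls, which held the lowest GLN3 and the highest URE2 and GZF3 of the 6 control groups. Against the 18 controls as 1 group the log2 values with carbofuran were 0.10 for GLN3 (limma adjusted p = 0.617), -0.07 for URE2 (0.739) and 0.20 for GZF3 (0.301), the last with the opposite sign. GZF3 was also higher with S-metolachlor (log2 0.34), a call lost without control array 2 (limma adjusted p = 0.0519) or IC20 array 1 (0.074). GAT1, the other GATA activator, ranged from -0.22 to 0.63 and was not called. With alachlor its controls read 3195, 3114 and 3692 and the exposed arrays 5312, 5260 and 4836. These groups did not overlap (log2 0.63, limma adjusted p = 0.452). Among the MCPA-ME controls GAT1 read 3548, 1977 and 645, and the fit uses 1 estimate of the spread for all groups.

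Of the 7 uptake and release genes, 6 were higher with carbofuran (median log2 0.74). With S-metolachlor 3 were higher and 1 lower, with pyrimethanil 2 were higher, with alachlor and MCPA-ME 1 each, and with diuron 1 was higher and 1 lower. CPS1, the vacuolar carboxypeptidase S that releases amino acids from peptides, accounted for the single calls upwards with alachlor, MCPA-ME and diuron.

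CPS1 was higher with every pesticide, with log2 changes of 0.74 with carbofuran, 0.64 with S-metolachlor, 0.64 with diuron, 0.46 with MCPA-ME, 0.35 with alachlor and 0.34 with pyrimethanil. With carbofuran the controls read 7166, 8472 and 7637 and the exposed arrays 13045, 12240 and 13501 (1.67-fold, limma adjusted p = 2.58e-08). The largest limma adjusted p of the 6, 0.00268, was that of alachlor. There the controls read 9182, 8540 and 9318 and the exposed arrays 11267, 11416 and 11814. The smallest change was that with pyrimethanil (limma adjusted p = 0.00209). In all 6 experiments the exposed arrays lay above the controls.

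GAP1, the general amino acid permease, was called with 2 pesticides. With carbofuran the controls read 5697, 6331 and 6157 and the exposed arrays 12972, 13044 and 12646 (2.13-fold, limma adjusted p = 2.04e-05). With S-metolachlor the controls read 4293, 4001 and 4013 and the exposed arrays 7081, 7390 and 7140.4 (1.76-fold, limma adjusted p = 0.000953). Both exposed groups stood well clear of their controls. With alachlor the GAP1 value was 0.46 on the log2 scale without a call (limma adjusted p = 0.137) and with MCPA-ME -0.43 (0.0778), where the groups overlapped.

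OPT2, of the oligopeptide transporter family, was called with carbofuran alone among the 6 tests, with controls at 2084, 2165 and 1979 and exposed arrays at 5282, 6380 and 6004 (2.83-fold, limma adjusted p = 4.35e-06). DIP5, the permease for glutamate and aspartate, went from 7405 ± 349.7 to 15490 ± 1299 with carbofuran (log2 1.06, limma adjusted p = 0.000884). Its rise with pyrimethanil (log2 0.73, limma adjusted p = 0.0349) was lost when any of 5 arrays was left out: control array 1 (0.109) or 3 (0.116), or IC20 array 1 (0.0875), 2 (0.1) or 3 (0.068). CAN1, the arginine permease, was higher with carbofuran (log2 0.71) and S-metolachlor (0.58).

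AGP1, a permease for many amino acids, was higher by 0.29 with carbofuran (limma adjusted p = 0.00787) and lower with diuron, from 14843 ± 628 to 11290 ± 331 (log2 -0.39, limma adjusted p = 0.00176). ASP1, the cytosolic asparaginase, was lower with S-metolachlor (log2 -0.32, limma adjusted p = 0.0411). That call was lost without any of control arrays 1 (0.105), 2 (0.0771) and 3 (0.0807) and IC20 arrays 1 (0.0632) and 3 (0.194). With the replicate number as a block ASP1 was also lower with pyrimethanil (log2 -0.24, limma adjusted p = 0.0425, against 0.164 without it).

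**Figure D3:**
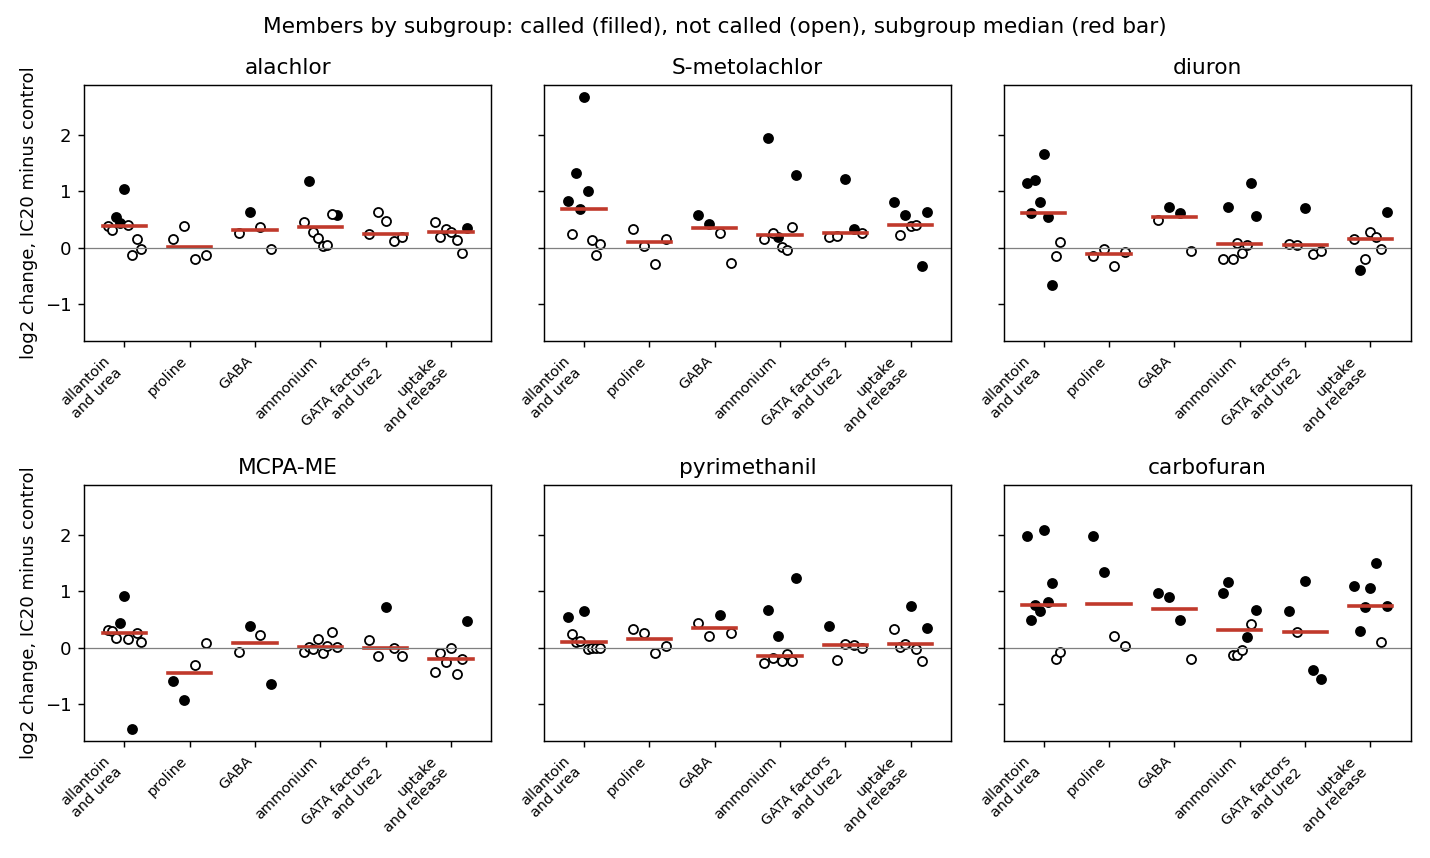
Log2 change (IC20 minus own control) of each gene, by group and pesticide, with filled points for an adjusted p under 0.05, open points for the rest and a red bar at the median of the group. The proline genes have a median of 0.77 with carbofuran and -0.45 with MCPA-ME, and the allantoin and urea genes have medians of 0.62 to 0.75 with carbofuran, S-metolachlor and diuron.

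The size of the change differed among the 6 pesticides for 26 of the 37 members, or 70.3%, while 43.3% of all genes differed (limma F test over the 6 changes, adjusted over all genes). The smallest p-values were those of DAL3 (3.56e-08), PUT4 (1.24e-07), DUR3 (6.69e-07), DAL5 (2.79e-06), MEP2 (6.21e-06) and DAL1 (6.86e-06). Of the genes called with at least 1 pesticide, DAL4 (0.667), UGA2 (0.476), ASP1 (0.213), DIP5 (0.0958) and UGA3 (0.0521) did not pass that test. MEP3 passed it (0.0456) without being called with any single pesticide.

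The chloroacetanilides alachlor and S-metolachlor were given at different doses, 200 and 220 mg/L, so their values are set side by side and not tested against each other. 6 members were called higher with both (DAL1, DAL2, DAL3, UGA1, MEP2 and GDH2), in addition to CPS1, which makes all 7 of the alachlor calls and 7 of the 15 S-metolachlor calls upwards. Over all genes 78.6% of those higher with alachlor were higher with S-metolachlor, and 27.5% of those higher with S-metolachlor were higher with alachlor. The log2 changes with alachlor and S-metolachlor were 1.04 and 2.68 for DAL3, 0.54 and 1.32 for DAL1, 1.18 and 1.94 for MEP2, and 0.58 and 1.29 for GDH2. For UGA1 the alachlor value was the larger, 0.63 against 0.43. Called with S-metolachlor and not with alachlor were DAL5, DAL7, UGA4, GLN1, DAL80, GZF3, GAP1, CAN1 and, downwards, ASP1. The alachlor values of 3 of these, DAL5 (0.38), DAL7 (0.40) and GAP1 (0.46), were positive with adjusted p-values of 0.129 to 0.148.

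The calls with MCPA-ME and pyrimethanil were the least firm. A fit to the 6 MCPA-ME arrays alone called no member, with 4 higher and 2 lower at an unadjusted p under 0.05, and gave adjusted p-values of 0.176 for DUR3, 0.125 for DAL3, 0.176 for CPS1 and 0.13 for PUT1. The fit over all arrays uses 1 estimate of the spread for all 12 groups. With pyrimethanil the count of 9 fell to 5 without control array 1 and to 4 without IC20 array 2. Array weights gave 14 higher and 5 lower with pyrimethanil, and its own 6 arrays gave 7 higher and 2 lower. DAL3, MEP2, GDH2 and CPS1 were called with pyrimethanil whichever array was left out.

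The unexposed cultures of the 6 experiments also differed in the level of these genes. The level differed among the 6 control groups for 28 members, or 75.7%, and for 78.9% of all genes (limma F test, adjusted over all genes), shares that lie close together. The carbofuran controls held the highest mean for 16 members, those of alachlor for 10, pyrimethanil for 7, diuron for 3, MCPA-ME for 1 and S-metolachlor for none.

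PUT1 had the widest range, from 224 ± 7.33 in the diuron controls to 954 ± 288 in those of carbofuran, a ratio of 4.27 (limma F test, adjusted p = 7.62e-09). DAL1 ranged from 39 ± 2.15 with S-metolachlor to 144 ± 9.86 with carbofuran, 3.70-fold (limma F test, adjusted p = 2.87e-11), and DAL7 between the same groups from 479 ± 52 to 1762 ± 76.9, 3.68-fold (5.68e-10). PUT4 ranged 3.11-fold (1.65e-07), again from S-metolachlor to carbofuran. For these 4 genes the carbofuran controls thus started highest, and the exposed carbofuran cultures rose above that level. GDH3 ranged 2.54-fold, DAL80 2.05-fold and MEP2 1.97-fold, each highest in the carbofuran controls, whereas the 2.00-fold range of GAT1 did not pass the test (adjusted p = 0.0646). Which step of the culture, extraction or array run goes with these differences was not tested.

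**Figure D4:**
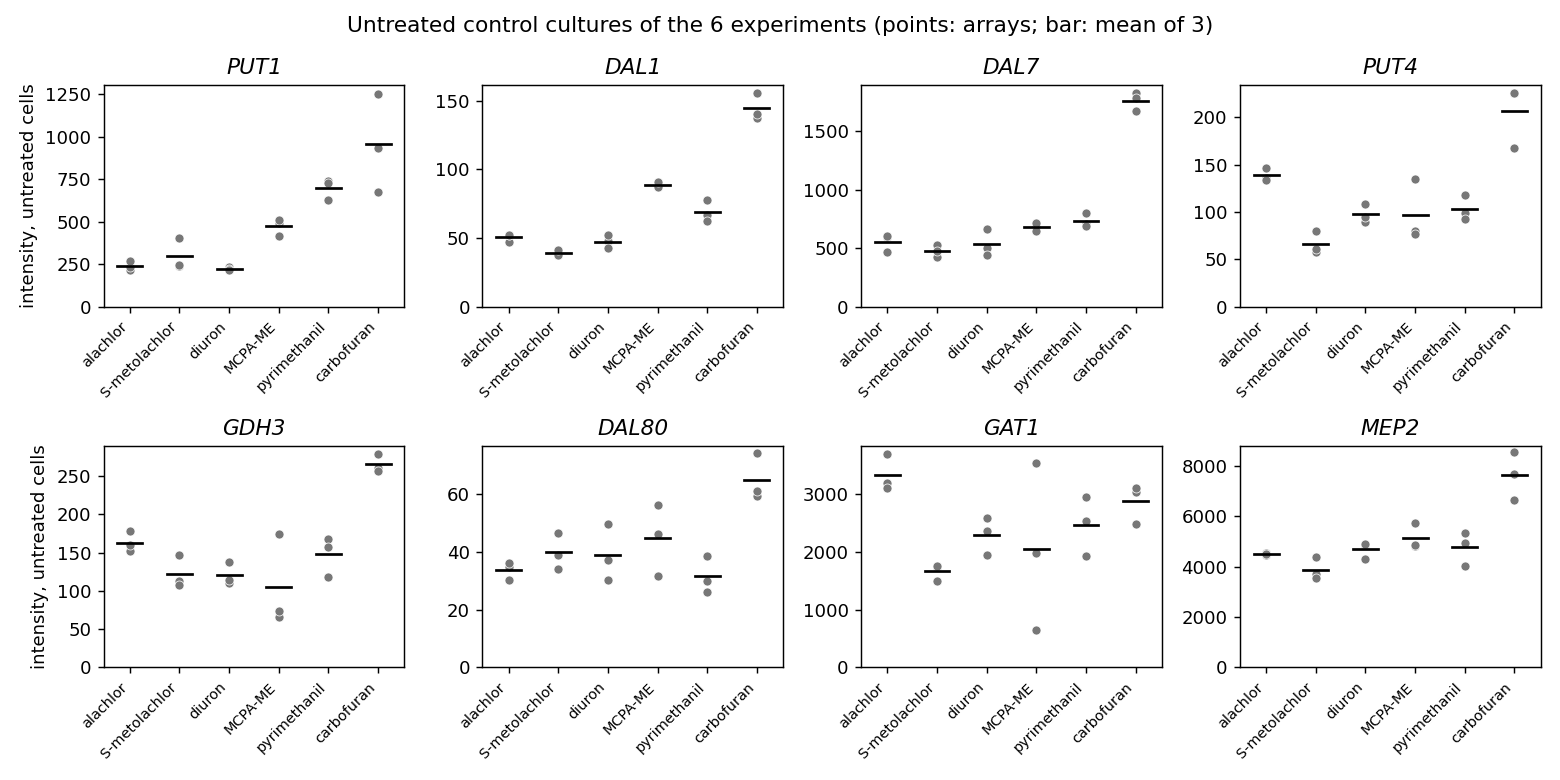
Intensity (linear axis) of PUT1, DAL1, DAL7, PUT4, GDH3, DAL80, GAT1 and MEP2 on the 3 unexposed arrays of each experiment, with a bar at each mean. The carbofuran controls are highest for 7 of the 8 genes, and those of alachlor for GAT1.

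Further nitrogen genes outside the 37 were counted from lists grouped by function. These lists too were chosen with earlier results of these data known, so their shares are a description and not a test. Of 13 measured genes also placed under nitrogen catabolite repression, 7 were higher and none lower with carbofuran, 5 higher and 3 lower with S-metolachlor, 5 and 2 with diuron, 5 and 3 with pyrimethanil, 2 and 1 with MCPA-ME, and 2 and none with alachlor. The shares higher were 53.8% with carbofuran (18.4% of all genes) and 38.5% each with S-metolachlor (10.1%), diuron (8.52%) and pyrimethanil (6.39%). They were 15.4% each with MCPA-ME (9.97%) and alachlor (3.52%). The shares lower were 23.1% each with S-metolachlor (14.4% of all genes) and pyrimethanil (9.71%), 15.4% with diuron (5.84%) and 7.69% with MCPA-ME (8.61%). 2 of the 13 were higher with all 6 pesticides. They were APE1, a vacuolar aminopeptidase (log2 0.44 to 0.78), and YHI9, whose role is unknown (0.29 to 1.5). CAR2, ornithine transaminase, fell by 2.20 on the log2 scale with pyrimethanil and by 1.64 with S-metolachlor and rose by 1.78 with carbofuran (limma adjusted p = 0.00169, 0.0102 and 0.00285). OPT1, an oligopeptide transporter, was lower with MCPA-ME (-1.39), diuron (-1.11) and S-metolachlor (-0.86) and higher with pyrimethanil (0.72).

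Of 14 genes for amino acid sensing and other permeases, 5 were higher with carbofuran, or 35.7%, and 1 was lower, or 7.14%. Over all genes these shares were 18.4% and 23.7%. With diuron 2 were higher and 2 lower, or 14.3% each (8.52% and 5.84% of all genes). With MCPA-ME 2 were higher, or 14.3% (9.97%), and 1 was lower, or 7.14% (8.61%). With S-metolachlor 1 was higher and 1 lower, or 7.14% each (10.1% and 14.4%). With pyrimethanil 1 was higher, or 7.14% (6.39%), and none was called with alachlor. PTR2, the di- and tripeptide transporter, was higher with S-metolachlor (log2 1.15), diuron (0.75) and carbofuran (0.73). Of 12 genes for TOR and nitrogen signalling, 2 were higher with carbofuran, or 16.7%, a share near the 18.4% of all genes. 4 of the 12 were lower with it, or 33.3%, against 23.7% of all genes. 1 was lower with S-metolachlor, or 8.33% (14.4% of all genes), 1 was lower with pyrimethanil, or 8.33% (9.71%), and none was called with the others. With carbofuran NPR1, a kinase that stabilises nitrogen permeases, was higher (log2 0.60), NPR2 was higher (0.71), TAP42, a regulator of phosphatases downstream of TOR, was lower (-0.90), and MKS1 was lower (-0.65). Of 4 genes for aromatic amino acid breakdown, ARO9, a transaminase, was higher with carbofuran (log2 1.14), S-metolachlor (0.59) and diuron (0.52) and lower with pyrimethanil (-0.55), and ARO8 was lower with MCPA-ME (-0.40).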

How the data were processed

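The deposited table holds 1 linear intensity per probe set and array, computed by the authors in Affymetrix Expression Console per the submitters' processing notes. Not given in the sources used here are its version, how arrays were normalised and how probes were combined. Control probe sets for RNA quality were not analysed. Of 5716 probe sets, the annotation gave 5498 a single gene, and the other 218, without a single gene, were left out. Where a gene had several probe sets (47 genes), the one with the highest mean was kept, and 12 symbols were updated, which left 5449 genes.

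Deposited intensities were raised to at least 32 and taken to log2. A model with 12 group means was fitted in limma 3.58.1 (R 4.3.3) to the 36 arrays, leaving 24 residual degrees of freedom and 25.8 once moderated. Tests were two-sided, with Benjamini-Hochberg adjustment over the 5449 genes in each comparison. Fold changes are 2 to the power of the log2 difference, and intensities are mean ± SD of 3 arrays. No counts exist, so the number of arrays limits the precision. The method was tested on simulated data.

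The members and lists were chosen with earlier results of these data known. All 37 members could be named, with every array's value for the 12 largest changes and the largest of each group. For other nitrogen genes, called genes could be named, at most 5 per list and pesticide. No sequence is printed, and R64 was used for names and neighbours only.

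Replicate numbers come from the titles. The deviations of same-numbered control and exposed arrays from their group means correlated over 0.1 in all 3 pairs with diuron (0.352 to 0.402) and pyrimethanil (0.173 to 0.38), and there the numbers were taken to pair the cultures. With each of the other 4 pesticides at least 1 pair lay under 0.1. The calls reported for all pesticides come from the fit without pairing, and the replicate block is among the alternatives. Alternatives were quantile normalisation, median centring, other floors, leaving out dim genes, limma's trend and robust setting, array weights, fits without the farthest arrays, the replicate block, pooled controls, single experiments and each array left out.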

Additional observations from a re-analysis of the deposited data

Results flagged for a closer look

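For 26 members the change itself differed among the 6 pesticides by limma's F test, with p-values adjusted over all genes, a test that asks whether the 6 changes are equal and not which of them differ. Among the allantoin and urea genes the adjusted p was 3.56e-08 for DAL3, 6.69e-07 for DUR3, 2.79e-06 for DAL5, 6.86e-06 for DAL1, 0.00178 for DAL7 and 0.00633 for DAL2. Among the proline and GABA genes it was 1.24e-07 for PUT4, 7.5e-05 for PUT1, 0.00963 for UGA1 and 0.0342 for UGA4. Among the ammonium genes it was 6.21e-06 for MEP2, 0.000262 for GDH2, 0.000584 for MEP1, 0.00984 for GLN1, 0.0173 for GDH3, 0.0323 for GDH1 and 0.0456 for MEP3. Among the regulators it was 0.00296 for GZF3, 0.0053 for URE2, 0.00931 for DAL80 and 0.0445 for GLN3. Among the uptake and release genes it was 0.00026 for OPT2, 0.000318 for GAP1, 0.000517 for AGP1, 0.00084 for CAN1 and 0.00938 for CPS1. DUR3, PUT4, PUT1, AGP1 and GZF3 were called in both directions.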

How the results depend on the processing

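Of the 82 calls, 46 held under every alternative that gave a value and 36 were lost under at least 1. The only reversal was GZF3 with carbofuran against the 18 controls taken as 1 group, 0.20 on the log2 scale (limma adjusted p = 0.301), and this setting kept 62 calls, added 29 and counted 11 members for alachlor. Besides those given above, it ended the calls of DAL4, DAL7, DAL80, GDH2 and UGA2 with diuron, DAL2 with alachlor and MCPA-ME, PUT1, UGA1 and UGA3 with MCPA-ME, DIP5 and GLN3 with pyrimethanil, and GZF3 with S-metolachlor. Array weights counted 28 members for S-metolachlor and 19 each for alachlor and pyrimethanil. Leaving out the dimmest 25% of genes removed 10 members from the test and left 4 calls with alachlor, 9 with diuron and 4 with MCPA-ME. Without the 2 arrays farthest from their groups, IC20 array 2 of MCPA-ME and IC20 array 1 of carbofuran, alachlor had 11 calls and carbofuran 27. In fits to the 6 arrays of a pesticide alachlor had 11 and MCPA-ME 0. A floor of 100 kept 75 of the 82 calls. With each array left out in turn the counts were 5 to 8 for alachlor, 13 to 15 for S-metolachlor, 12 to 14 for diuron, 8 to 13 for MCPA-ME, 4 to 9 for pyrimethanil and 24 to 27 for carbofuran. Members whose change differed numbered 22 to 29, and those whose control level differed 27 to 34. Of the 82 calls, 59 survived each such fit. The replicate block kept all 82 calls and gave 8 for alachlor, 16 for S-metolachlor, 16 for diuron, 12 for MCPA-ME, 11 for pyrimethanil and 27 for carbofuran, and 26 for the difference among pesticides. No call was lost under the pairing, and the calls it added with diuron and pyrimethanil are those of UGA4 and ASP1. The planned share of promoters with a GATA motif was not run, since no promoter sequence was used here. The causes of these shifts were not tested. The values of dim probe sets (DAL80, DAL1) and of the widely spread MCPA-ME arrays are limited in precision.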

Other observations

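Across the 37 members the log2 changes with any 2 pesticides were compared as a description, with no p-value, since the genes are not independent and all changes come from 1 table. Pearson's r was 0.809 between alachlor and S-metolachlor (0.62 over all genes), 0.732 between S-metolachlor and diuron (0.392), 0.701 between alachlor and diuron (0.641) and 0.696 between diuron and MCPA-ME (0.635). Carbofuran gave the widest gap between members and all genes: its r with S-metolachlor was 0.57 over the members and 0.0448 over all genes, with pyrimethanil 0.446 and 0.063, and with diuron 0.449 and 0.141. Between carbofuran and MCPA-ME it was -0.0028 over the members and 0.138 over all genes.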
